A study of Mus musculus with 8 samples.

Results

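In the kidneys of 8 mice, 21 named genes were detected on the array of every control mouse and on the array of no NEKO mouse, out of 18217 genes with a named probe. They were chosen by the scanner software's own call that a spot is well above background. A gene was taken when at least 1 of its probes had that call on all 4 control arrays and on none of the 4 NEKO arrays, and when no other probe of it had the call on any NEKO array. Gene families of drug metabolism, keratins, lectins, chemokines, collagens, matrix proteases and histones were set aside by the start of their symbols, and that step alone removed 0 genes. Since the calls of these same arrays chose the genes, their fall from control to NEKO kidneys is described here and is not tested. The genes are Bglap, Myh7, Tbpl2, Adh6a, Crtam, Olfr90, Mmd2, Slc17a7, Spag6l, Tarm1, 1700009J07Rik, Rtp3, Sectm1a, Fndc7, Tssk1, Tcp10c, Fbll1, Olfr74, Sv2b, Myo15 and Cd300ld3, in falling order of their signal in control kidneys. RefSeq lists 20 of them as coding for a protein and 1700009J07Rik as a long non-coding RNA.

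Nrf2 is a transcription factor that switches on detoxifying and antioxidant genes through the antioxidant response element, a short DNA motif in their control regions, and Keap1 is the adaptor that holds it back by sending it for degradation. Without Keap1, Nrf2 accumulates and its target genes are driven in the absence of stress. Nrf2 is known chiefly as an activator of transcription, and the genes described here are those whose signal went the other way.

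All mice were 8 weeks old, on a mixed background of 129Sv/J and C57BL/6J, and all carried Nrf2Flox/Flox. The 4 NEKO mice, 2 females and 2 males, were Keap1-/-::Nrf2Flox/Flox::K5-Cre. They lack Keap1 throughout the body, and their Nrf2 is deleted where K5-Cre acts, in squamous epithelium, so that Nrf2 is not targeted in the kidney tubules. Control replicate 1, a female, was K1 (Keap1+/-::Nrf2Flox/Flox) and has no Cre, while control replicates 4 and 7 (males) and 8 (a female) were K1Cre (Keap1+/-::Nrf2Flox/Flox::K5-Cre). The controls are therefore Keap1 heterozygotes and not wild-type mice. Total RNA of the whole kidney was hybridised to 1-colour (Cy3) Agilent mouse arrays, with 1 array per mouse, so that fewer cells of a type and less RNA per cell cannot be told apart.

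Between 62.1% and 66.1% of the non-control probes were well above background on each array, and no spot was saturated. Keap1 itself lay between 1.77 and 1.92 in the control kidneys and between 0.06 and 0.45 in the NEKO kidneys, on the log2 scale used throughout, in which 0 is the 75th percentile of the probes of the array. Proximal tubule transporters and receptors were bright on every array, and the summed level of the 7 genes of that list lay between 8.75 and 9.16 in controls and between 8.93 and 9.16 in NEKO kidneys. The females were hybridised on slide 2 and the males on slide 1, and on both slides the controls took positions 1 and 2 and the NEKO mice positions 3 and 4. Genotype and position on the slide cannot be told apart, and neither can sex and slide.

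The counting of calls shows how rare the pattern was. Of the named probes, 18459 were well above background on all 8 arrays and 5177 on none. The pattern of all 4 control arrays and no NEKO array was shown by 28 named probes of 27 genes and by 9 probes that could not be named. Another probe well above background in a NEKO kidney removed Cdh20, H1f3, Rnf122, Rnf157, Smg1 and Vcan, which left 21 genes, or 0.115% of the genes with a named probe. The opposite pattern, all 4 NEKO arrays and no control array, was shown by 15 named probes and, under the same rule, by 11 genes. Next to the chosen probes in the grid of calls were 53 probes detected on 4 control arrays and 1 NEKO array, and 55 detected on 3 control arrays and no NEKO array. When 1 array was left out, the same rule took between 23 and 40 genes. Leaving out an array only loosens the rule, so the 21 are among them by construction. It took 32 genes without NEKO replicate 3, 38 without NEKO replicate 5 and 40 without control replicate 4.

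**Figure D1:**
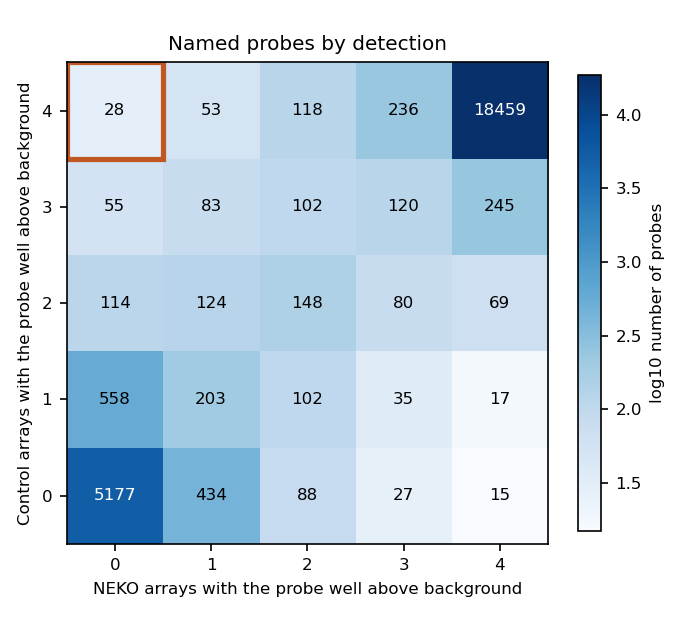
Number of named probes by the count of NEKO arrays (horizontal axis, 0 to 4) and of control arrays (vertical axis, 0 to 4) on which the probe was well above background, with colour giving the log10 number of probes. The outlined cell at the upper left holds the 28 probes from which the 21 genes come, and the cell at the lower right holds 15.

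All 21 genes were dim in the control kidneys. Their mean control levels ran from -4.92 for Cd300ld3 to -3.59 for Bglap, with a median of -4.41, while the 13009 named genes that were detected on all 4 control arrays had a median level of 0.40. The brightest of them, Bglap, stood at the 8.00 percentile of those 13009 genes, the median of the 21 genes at the 2.03 percentile and Cd300ld3 at the 0.146 percentile. Next after Bglap came Myh7 at the 6.11 and Tbpl2 at the 5.79 percentile, and the 10th percentile of the 13009 genes, -3.32, was above the mean of every one of the 21. In the units of the scanner, Bglap gave a processed signal between 61.6 and 105 in controls and between 5.14 and 13.9 in NEKO kidneys, where the 75th percentile of an array lay between 858 and 1128. This order is one of probe brightness and not of transcript number, since probes differ in how well they bind.

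**Figure D2:**
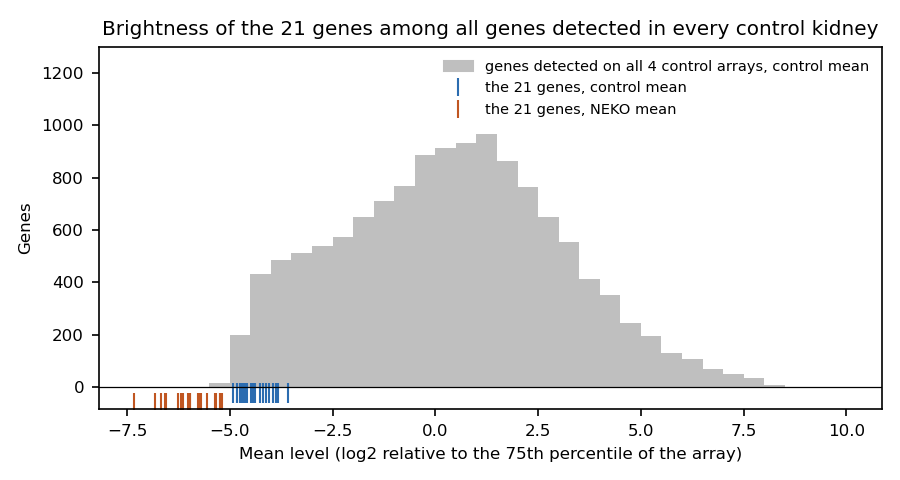
Number of genes (vertical axis) by mean level in control kidneys (horizontal axis, log2 units from the array's 75th percentile) for the 13009 named genes detected on all 4 control arrays, in grey. Blue ticks are the control means of the 21 genes, all between -4.92 and -3.59 at the dim end of the range, and orange ticks their NEKO means.

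The name "switched off" goes further than the data do. Of the 84 NEKO values, 4 for each of the 21 genes, 79 were still called significantly positive by the scanner software, and 18 of the genes had that call on all 4 NEKO arrays. Set against the negative control spots of the same array, 76 of the 84 values lay above their 95th percentile, and 16 of the genes did so on all 4 NEKO arrays. That level is easily passed, since between 36.0% and 43.8% of the probes not well above background on a NEKO array pass it as well. Where the weaker call of a significantly positive signal was used in place of the stricter one, the rule took 22 genes, of which 0 were among the 21. The genes are therefore spoken of here as undetected in NEKO kidneys, in the sense of not well above background, and each fold but that of Olfr74 is a lower bound: the mean control level was set over a mean of the NEKO arrays in which any value under the lowest level of a detected probe on that array was raised to it. This lowest detected level ran from -5.68 to -5.18 over the 8 arrays, and 22 of the 84 NEKO values lay above it on their own array.

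**Figure D3:**
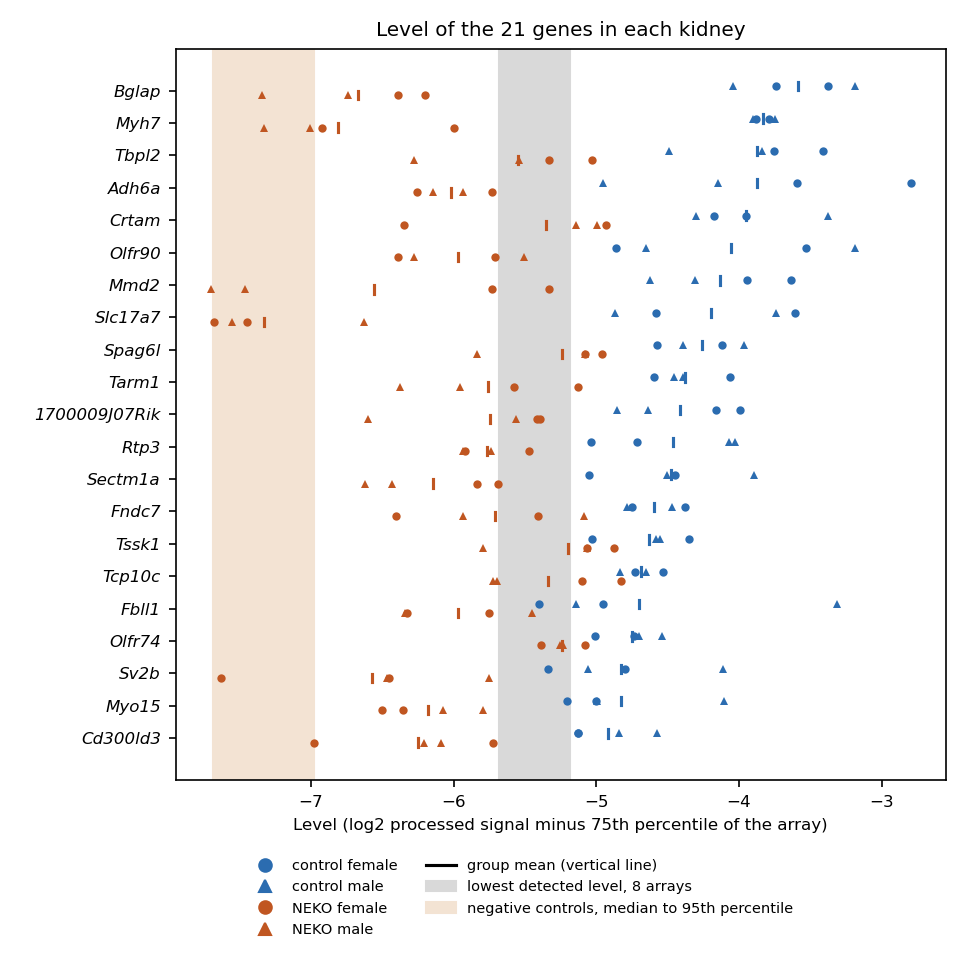
Level of each of the 21 genes (rows, in order of control mean) in each kidney, in log2 units above or below the array's 75th percentile, with controls in blue, NEKO in orange, females as circles, males as triangles and group means as vertical lines. The grey band marks the lowest detected level of the 8 arrays (-5.68 to -5.18) and the pale band the negative control spots from the lowest median to the highest 95th percentile. Only Tssk1 and Tcp10c have NEKO values above their lowest control value.

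Across the 21 genes the lower bound had a median of 1.88-fold and ran from 1.36-fold for Tssk1 to 3.44-fold for Bglap. It was over 2-fold for 8 genes and under 1.5-fold for 6. Every NEKO mouse lay below every control mouse for 19 of the 21 genes, where 5.09% of the 13570 named genes tested across the arrays did so. The fit over all genes in limma called 5 of the 21 lower in NEKO kidneys (Bglap, Myh7, Tbpl2, Mmd2 and Slc17a7) and none higher, beside 0.169% of all named genes called lower and 0.111% called higher. The rule used this same contrast, so nothing is read from these counts. The bounds were smaller with a normexp correction of the raw spot signal, with a median of 1.21-fold. That setting also adds an offset of 50 to each signal, which narrows log2 differences between dim signals by construction. Under it all 21 genes were lower in NEKO kidneys and 12 of the 21 did not overlap. No share over all named genes under normexp stands beside these counts, so nothing is read from them either.

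**Figure D4:**
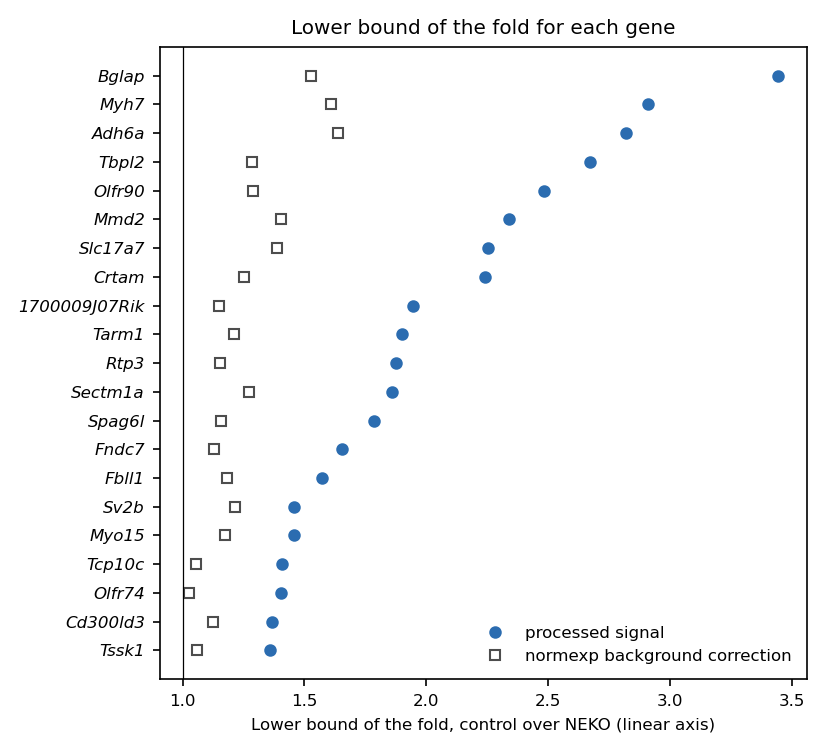
Lower bound of the fold, control over NEKO, for each of the 21 genes (rows), on a linear axis that begins near 1. Filled circles use the processed signal (1.36 to 3.44) and open squares a normexp background correction, under which every bound was smaller and the highest was 1.64 for Adh6a.

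Osteocalcin led the list. Bglap encodes this small calcium-binding protein, which osteoblasts secrete into the bone matrix and which also circulates as a hormone. Its level was -3.74 in control replicate 1, -4.04 in replicate 4, -3.19 in replicate 7 and -3.38 in replicate 8, and in NEKO replicates 2, 3, 5 and 6 it was -6.20, -6.39, -7.34 and -6.74. The groups did not overlap, and all 4 NEKO values lay below the lowest detected level of their arrays. The group means were -3.59 ± 0.38 and -6.67 ± 0.50 (SD, n = 4 each), and the bound was 3.44-fold.

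The RefSeq promoter of Bglap is shown because its gene has the largest bound and because it holds a copy of the antioxidant response element core, TGACNNNGC, in reverse. Each window covers 250 bases before to 50 bases after a RefSeq transcription start of GRCm38.p6, written from 5′ to 3′ along the gene, and capitals mark the core, which was sought on both strands. The window of Bglap is chr3:88384417-88384716 on the minus strand, with the core from base 40. Those of Adh6a (chr3:138313036-138313335, plus strand, core from base 16) and Tarm1 (chr7:3502575-3502874, minus strand, reversed core from base 2) are the others of the 21 genes with a copy. Slc17a7 (chr7:45163671-45163970, plus strand), whose NEKO values all lay below the lowest detected level, is set beside them as a window without one.
Bglap: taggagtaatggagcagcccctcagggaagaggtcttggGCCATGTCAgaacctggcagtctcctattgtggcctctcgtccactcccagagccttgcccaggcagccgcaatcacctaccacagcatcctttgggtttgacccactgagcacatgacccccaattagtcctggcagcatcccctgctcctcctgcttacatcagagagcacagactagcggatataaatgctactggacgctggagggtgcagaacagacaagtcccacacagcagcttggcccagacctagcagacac
Adh6a: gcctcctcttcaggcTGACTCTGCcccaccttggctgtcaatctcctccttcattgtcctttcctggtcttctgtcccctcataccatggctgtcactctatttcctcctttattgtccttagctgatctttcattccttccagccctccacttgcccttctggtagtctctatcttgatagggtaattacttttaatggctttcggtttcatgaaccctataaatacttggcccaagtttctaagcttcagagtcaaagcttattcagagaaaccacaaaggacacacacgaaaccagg
Tarm1: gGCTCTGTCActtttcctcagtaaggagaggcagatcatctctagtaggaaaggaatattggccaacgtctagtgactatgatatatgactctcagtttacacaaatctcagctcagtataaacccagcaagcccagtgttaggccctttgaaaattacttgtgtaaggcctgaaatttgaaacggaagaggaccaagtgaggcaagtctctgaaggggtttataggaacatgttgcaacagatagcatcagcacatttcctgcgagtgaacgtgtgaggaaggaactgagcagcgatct
Slc17a7: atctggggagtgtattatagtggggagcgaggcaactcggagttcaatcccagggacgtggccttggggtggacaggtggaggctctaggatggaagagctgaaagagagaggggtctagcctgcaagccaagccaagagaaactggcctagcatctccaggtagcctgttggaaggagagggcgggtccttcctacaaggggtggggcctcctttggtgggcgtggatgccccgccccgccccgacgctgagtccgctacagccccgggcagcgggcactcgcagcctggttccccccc
A window was found for 17 of the 21 genes, with none for Crtam, Fndc7, Olfr74 and Sectm1a. The core stood in 3 of these 17 genes, or 17.6%, and in 14.0% of the 27025 genes with a window. A match is a run of letters and not a site of binding.

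A second osteocalcin gene moved with it. Bglap3, the neighbour of Bglap in the RefSeq gene order and its close relative, was detected in all 4 controls and in 3 NEKO kidneys, so it is not one of the 21. Its level was -2.86, -2.94, -2.55 and -2.51 in control replicates 1, 4, 7 and 8, and -4.45, -4.81, -4.95 and -5.25 in NEKO replicates 2, 3, 5 and 6. These groups did not overlap, and Bglap3 fell by 2.15 on the log2 scale in limma (SE 0.16, adjusted p = 0.0073). Leaving out any 1 mouse gave adjusted p-values between 0.013 and 0.046. Bglap2 had no named probe, and whether the probes of Bglap and Bglap3 read the same transcripts was not tested.

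No further gene of the bone matrix and osteoblast list was called. Of the 10 genes listed, 5 were tested, and Bglap3, the close relative of Bglap, was the only called gene beside it. Which cells express Bglap3 was not tested, so its place in this list does not make it a sign of bone. The osteoblast transcription factor Runx2 differed by 0.51 (SE 0.33, adjusted p = 0.44), the alkaline phosphatase Alpl by 0.06 (SE 0.15, adjusted p = 0.84) and osteopontin, Spp1, by -0.0031 (SE 0.23, adjusted p = 0.996) in limma. The bone markers Ibsp, Sp7, Dmp1 and Phex were well above background on no array of either group. The summed level of the list, carried by Spp1 and Alpl, lay between 6.87 and 7.91 in controls and between 6.99 and 7.88 in NEKO kidneys.

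**Figure D5:**
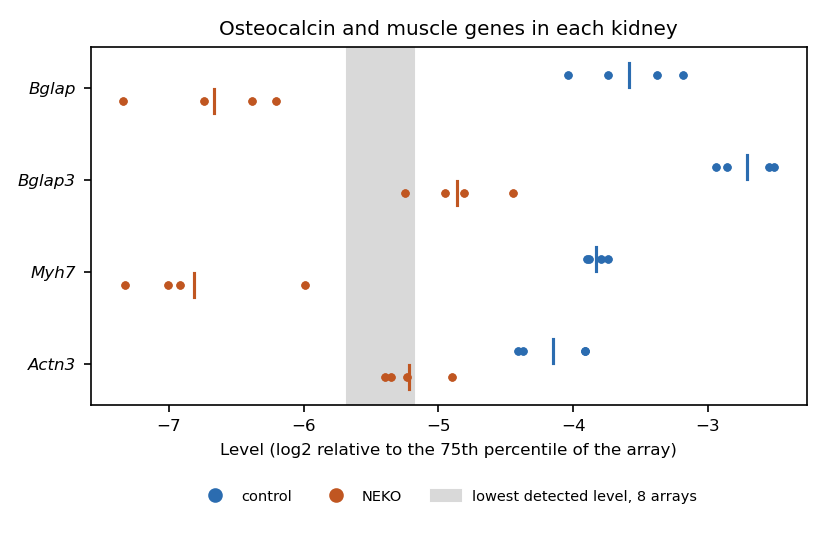
Level of Bglap, Bglap3, Myh7 and Actn3 (rows) in each kidney, in log2 units from the array's 75th percentile, with controls in blue, NEKO in orange, group means as vertical lines and the lowest detected level of the 8 arrays as a grey band. No NEKO value of these 4 genes reached the lowest control value.

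Among motor proteins, Myh7, the myosin heavy chain of slow muscle fibres and the heart, and Myo15, the myosin of the stereocilia of hearing cells, were detected in controls only. The level of Myh7 was -3.79, -3.74, -3.90 and -3.88 in control replicates 1, 4, 7 and 8, and -5.99, -6.92, -7.01 and -7.33 in NEKO replicates 2, 3, 5 and 6. Its control mice were the closest together of the 21 genes, with an SD of 0.07, and its bound was 2.91-fold. Myh7 and Sv2b had a second named probe. That of Myh7 also met the flags, at levels between -4.25 and -3.87 in controls and between -7.25 and -6.004 in NEKO kidneys. That of Sv2b did not meet them, as it was well above background on no control array. Myo15 was far dimmer, with means of -4.83 ± 0.49 and -6.18 ± 0.31 (SD, n = 4 each) and a bound of 1.46-fold.

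Most genes of fast muscle were undetected in both groups. Of 8 skeletal muscle genes, Myh1, Myh2, Myh4, Ckm and Tnnt3 were detected on no array, and of the 3 tested, only Actn3, the actinin of fast fibres, was called. The other tested genes, Acta1 and Mylpf, were detected on all 8 arrays. In limma Acta1 differed by 0.24 (SE 0.27, adjusted p = 0.65) and Mylpf by -0.01 (SE 0.07, adjusted p = 0.94). Actn3 was well above background on 4 control arrays and on 1 NEKO array. It fell by 1.07 on the log2 scale, from -4.15 ± 0.27 to -5.22 ± 0.22 (SD, n = 4 each; limma, SE 0.09, adjusted p = 0.011). This call did not hold without NEKO replicate 6 (adjusted p = 0.057), control replicate 7 (adjusted p = 0.059) or control replicate 8 (adjusted p = 0.056), nor with the normexp correction (adjusted p = 0.085). Among 7 heart muscle genes, Myh6 and Myl2 were detected on no array and 0 of 5 tested were called, with a median difference of 0.02. The summed level of the skeletal list lay between -1.63 and -1.15 in controls and between -1.54 and -1.27 in NEKO kidneys, and that of the heart list between 0.07 and 0.94 and between 0.43 and 0.64.

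Genes of synaptic vesicles included Slc17a7, the vesicular glutamate transporter VGLUT1, and Sv2b, a vesicle glycoprotein. Slc17a7 stood at -3.61, -3.74, -4.87 and -4.58 in control replicates 1, 4, 7 and 8, and at -7.44, -7.68, -6.63 and -7.55 in NEKO replicates 2, 3, 5 and 6. All 4 NEKO values were below the lowest detected level, with only NEKO replicate 5 above the 95th percentile of its negative control spots. The means of Slc17a7 were -4.20 ± 0.62 and -7.33 ± 0.47 (SD, n = 4 each), and the bound was 2.25-fold. Sv2b was among the dimmest of the genes, at -4.83 ± 0.52 in controls and -6.57 ± 0.78 in NEKO kidneys, with a bound of 1.46-fold. These values rest on 1 of its 2 named probes, the other being undetected in the controls.

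Neither sister transporter was called or had the same pattern of detection. Slc17a8 (VGLUT3) was detected on all 8 arrays and differed by -0.36 (SE 0.15, adjusted p = 0.28 in limma), and Slc17a6 (VGLUT2) was detected in no control and 1 NEKO kidney. Syp, of synaptic vesicles, and Rbfox3, a splicing factor of neuronal nuclei, were detected on all 8 arrays and Snap25 on none, and 0 of 6 tested genes of the neuron and synapse list were called. The summed level of that list, carried by Syn1, lay between 4.64 and 7.45 in controls and between 4.12 and 4.93 in NEKO kidneys.

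Receptors and ligands of immune cells made up 4 of the 21 genes. Crtam, an adhesion receptor of activated T cells and natural killer cells, had levels of -4.18, -4.30, -3.37 and -3.95 in control replicates 1, 4, 7 and 8, and of -4.93, -6.35, -5.14 and -5.00 in NEKO replicates 2, 3, 5 and 6. Here only NEKO replicate 3 lay below the lowest detected level, so the bound was 2.24-fold. Tarm1, an activating receptor of neutrophils and other myeloid cells, stood at -4.06, -4.46, -4.39 and -4.60 in the controls in the same order and at -5.57, -5.12, -5.96 and -6.37 in the NEKO mice (bound 1.90-fold). Sectm1a, a secreted and membrane-bound ligand of T cells, had means of -4.48 ± 0.47 and -6.14 ± 0.45 (SD, n = 4 each) and a bound of 1.86-fold. Cd300ld3, a member of the CD300 family of myeloid receptors, was the dimmest gene of all, at -4.92 ± 0.26 and -6.25 ± 0.53, with a bound of 1.37-fold. It belongs to a cluster of close copies, and whether its probe reads more than 1 of them was not tested.

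No general marker of these cells was called. Of the T cell list, 0 of 4 tested genes were called: Cd3e differed by 0.14 (SE 0.33), Cd3d by -0.16 (SE 0.54), Lck by 0.37 (SE 0.39) and Cd8a by -1.28 (SE 0.41, adjusted p = 0.19), while Cd4 was detected on no array. The summed level of that list lay between -1.52 and -0.68 in controls and between -2.10 and -0.34 in NEKO kidneys. Of the macrophage list 0 of 4 tested genes were called, with a median difference of 0.27. Of the neutrophil list 0 of 3 were called, but none had a fitted value below 0 and their median difference was 1.64. The summed level of the neutrophil list lay between -2.16 and -0.92 in controls and between -1.50 and 2.74 in NEKO kidneys. There was no list for natural killer cells. A lack of calls does not show that the numbers of these cells were alike.

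Chemosensory genes were Olfr90 and Olfr74, which encode odorant receptors, and Rtp3, a chaperone that helps taste receptors reach the cell surface. Olfr90 was -3.53, -3.18, -4.65 and -4.86 in control replicates 1, 4, 7 and 8, and -5.71, -6.39, -5.51 and -6.28 in NEKO replicates 2, 3, 5 and 6. Its controls were widely spread (SD 0.82), the pair of replicates 7 and 8 being more than 1 unit below the other pair, and its bound was 2.48-fold. Rtp3 was -4.72, -4.07, -4.02 and -5.04 in the controls and -5.92, -5.47, -5.93 and -5.74 in the NEKO mice in the same order, with both control males above both control females (bound 1.88-fold). Olfr74 had means of -4.75 ± 0.20 and -5.24 ± 0.13 (SD, n = 4 each), and since its 4 NEKO values all lay above the lowest detected level, its 1.40-fold is the measured ratio. Odorant receptors form a very large family of similar sequence, and whether these probes read other members was not tested.

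Genes known from germ cells were Tbpl2, the TATA-binding protein of the growing oocyte, Spag6l, a protein of the sperm tail and of cilia, Tssk1, a kinase of maturing sperm, and Tcp10c, of the testis. Tbpl2 had levels of -3.41, -3.84, -4.49 and -3.75 in control replicates 1, 4, 7 and 8, and of -5.03, -5.33, -5.54 and -6.28 in NEKO replicates 2, 3, 5 and 6 (bound 2.67-fold). Spag6l had -4.58, -4.39, -3.96 and -4.12 against -5.08, -4.96, -5.08 and -5.83 in the same order (bound 1.79-fold), a gap of 0.38 between the groups. Tssk1 and Tcp10c were the genes whose groups overlapped: for Tssk1 the lowest control, -5.03, lay below the highest NEKO mouse, -4.87, and for Tcp10c the same values were -4.84 and -4.83. Their bounds were 1.36-fold and 1.41-fold. Of the germ cell list, Ddx4 and Dazl were detected on no array, and Prm1 and Tnp1 on all 8, with 0 of 2 tested genes called and summed levels between -1.62 and -0.89 in controls and between -1.84 and -1.04 in NEKO kidneys.

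Of the enzymes, Adh6a belongs to the alcohol dehydrogenases and Fbll1 is a relative of the ribosomal RNA methyltransferase fibrillarin. Adh6a stood at -3.59, -4.95, -4.15 and -2.80 in control replicates 1, 4, 7 and 8, and at -5.73, -6.26, -5.93 and -6.14 in NEKO replicates 2, 3, 5 and 6. Both control females were above both control males, and the controls were widely spread (SD 0.91). Its bound was 2.82-fold. Fbll1 was as widely spread in controls (SD 0.94) because of control replicate 4 alone, which stood at -3.32 where the other controls lay between -5.40 and -4.95. Its NEKO mean was -5.97 ± 0.44 (SD, n = 4), only 0.05 separated the groups, and the bound was 1.57-fold.

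The remaining genes were Mmd2, a membrane protein of the progestin and adipoQ receptor family, Fndc7, a protein of fibronectin type III domains, and 1700009J07Rik. Mmd2 stood at -3.94, -4.31, -4.63 and -3.64 in control replicates 1, 4, 7 and 8, and at -5.73, -5.33, -7.70 and -7.46 in NEKO replicates 2, 3, 5 and 6. In the NEKO males both values lay below the 95th percentile of the negative control spots of their arrays. For 1700009J07Rik the controls were -3.99, -4.64, -4.85 and -4.16 and the NEKO mice -5.41, -5.40, -6.60 and -5.56 in the same order. Bounds were 2.34-fold for Mmd2, 1.94-fold for 1700009J07Rik and 1.65-fold for Fndc7, whose means were -4.59 ± 0.20 and -5.71 ± 0.58 (SD, n = 4 each).

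The 5 dimmest genes inside it, Fbll1, Olfr74, Sv2b, Myo15 and Cd300ld3, had control means between -4.92 and -4.70. Just outside, 32 genes were detected in 4 controls and 1 NEKO kidney. The 5 of these with the largest fitted differences had control means of -4.18 (Nr0b2), -3.33 (Pramel13), -3.28 (Olfr123), -3.65 (Adam24) and -4.15 (Lipc). A further 35 genes were detected in 3 controls and no NEKO kidney. The 5 chosen in the same way had control means of -4.25 (Spock3), -4.47 (Mas1), -4.62 (Cd207), -4.89 (Fat2) and -4.84 (Nr2e3). Most of their NEKO values were not well above background, so no size of fall is given for them.

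The rule asks for detection in every control mouse, so no control mouse could carry the pattern alone, and the levels per mouse are a description. The median level of the 21 genes was -4.35 in control replicate 1, -4.31 in replicate 4, -4.58 in replicate 7 and -4.60 in replicate 8, and in the NEKO mice it ran from -6.21 in replicate 6 to -5.69 in replicate 3. Control replicate 8 had the lowest control value for 9 genes and replicate 7 for 7. The single K1 mouse, which has no Cre, lay above the mean of the K1Cre mice for 13 genes and below it for 8. No value of the 21 genes stood apart from the rest of its control group by Dixon's criterion at the 95% level.

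Sex could be compared within the controls, a difference the rule did not use, although females and males were on different slides. In limma, 0 of the 21 genes were called between the 2 females and 2 males, beside 0% of the 13009 named genes tested. At an unadjusted p under 0.05 there were 5 of the 21 (23.8%) beside 17.2% of all. Lower in females were Rtp3, with a difference of females from males of -0.83 (-4.88 against -4.05, SE 0.15, adjusted p = 0.20), and Cd300ld3, with -0.42 (SE 0.13, adjusted p = 0.27). Higher in females were Adh6a by 1.36 (-3.19 against -4.55, SE 0.39, adjusted p = 0.25), Mmd2 by 0.68 (SE 0.18, adjusted p = 0.24) and 1700009J07Rik by 0.67 (SE 0.13, adjusted p = 0.22). None of these passed the adjusted test, which with 2 mice against 2 does not show that the sexes were alike. Without control replicate 7 the fit called 8 named genes, none of them one of the 21.

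Beside the 21 genes on the chromosome, 1 change was called. In the order of RefSeq genes, the nearest tested genes on either side made 42 neighbours, with a median difference of -0.04, of which limma called 1 lower, Bglap3, and none higher. Over all named genes, 0.169% were called lower, and a single call is too few to compare with that share. Il1f5, beside Tbpl2, had the next largest fitted fall, -1.76 (SE 0.32, adjusted p = 0.078 in limma), and was not called. Of the 42 neighbours, 25 had fitted values below 0. Crtam and Rtp3 lie on the chromosome of Keap1, 106 and 618 tested genes away from it.

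Most listed targets of Nrf2 had higher fitted values in the same kidneys, but few were called. Of 12 listed targets, 11 were tested and 2 were called higher, beside 0.111% of all named genes. These were Gpx2, a glutathione peroxidase, by 5.40 (SE 0.46, adjusted p = 0.011) and Txnrd1, thioredoxin reductase, by 1.30 (SE 0.17, adjusted p = 0.049) in limma. Not called were Nqo1, with 2.62 (SE 0.43, adjusted p = 0.065), and Gclc, with 0.95 (SE 0.37, adjusted p = 0.25). Hmox1 alone had a fitted value below 0, -0.08 (SE 0.16, adjusted p = 0.82). None of the 11 was called lower, and their median difference was 1.01 beside -0.02 over all named genes. Lists of kidney cells, vessels, fat, adrenal gland and blood held no called gene. Among these, all 6 intercalated cell genes had fitted values below 0, with a median difference of -0.90. Their summed levels lay between 5.20 and 5.63 in controls and between 2.80 and 4.62 in NEKO kidneys. The brightest of them, Slc26a4, had means of 4.69 ± 0.20 and 2.62 ± 1.25 (SD, n = 4 each). All 5 thick ascending limb genes and all 4 tested adrenal gland genes also had fitted values below 0, with median differences of -0.27 and -0.16. The part of these lists in the pattern of the 21 genes was not tested.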

How the data were processed

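One Agilent array per kidney was measured in 4 control and 4 NEKO mice. The authors deposited scanner output of Agilent Feature Extraction 10.7.3.1 with an intensity for each spot, in which the processed signal is corrected for background but not yet normalized between arrays. They also deposited a table of log2 values, each probe centred on its median over the arrays. For probes with a single spot, 100% of its values matched those computed here, centred in the same way, within 0.01. Those had been scaled to the 75th percentile of each array, so the deposited table is not an independent setting. How the arrays were normalized is not given in the sources used here.

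Outlier spots were left out, processed signals were put on a log2 scale and averaged over the spots of 1 probe, and the 75th percentile over the 41174 non-control probes was subtracted on each array. The detection flags are used as they stand. Transcript accessions, without versions, were matched to RefSeq genes of GRCm38.p6, which named 26690 probes as 18217 genes. The array annotation is on another build, so the RefSeq table gave names and gene order only. Promoter windows come from RefSeq on GRCm38.p6.

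NEKO and control kidneys were compared in limma 3.58.1 (R 4.3.3) with sex as a term, over probes detected on 4 or more of the 8 arrays, with a gene read from its brightest kept probe and Benjamini-Hochberg adjustment over 19593 genes and unnamed transcripts at 0.05. Females and males were compared in the 4 control arrays over 18466. Scripts were tested on simulated data with known falls. The genotype fit recovered 64% of falls of 1 log2 unit and 92.5% of falls of 2. The comparison of the sexes recovered 0% and 70% of them. A gene that was not called is therefore not shown to be unchanged. A summed level is the log2 of the summed linear values of the tested genes of a list. The number of arrays limits the precision.

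The genes, the 21 marker lists and the role groups were chosen with earlier results of these data known. Values per mouse are given for the 12 genes brightest in controls, and other genes by role. Other settings were outlier spots, the detection call, the demand on other probes, quantile normalization, median scaling, a normexp correction (offset 50) of the median spot signal and its local background, the filter on dim probes, no sex term, the deposited table, the methods' t-test and leaving out each mouse. The settings were read for Bglap3, Actn3 and Keap1 after seeing the data.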

Additional observations from a re-analysis of the deposited data

How the results depend on the processing

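No paired analysis was possible because the replicate numbers run over both groups and none is shared. The count of 21 genes was 21 with outlier spots left out and 26 with no demand on other probes. The weaker detection call took 22 genes, of which 0 were among the 21, so the list was replaced. Leaving out 1 mouse gave 23 to 40, which include the 21 by construction. Naming by a platform table was not run. The median bound of 1.88-fold became 1.21-fold with the normexp correction and lay between 1.81 and 1.92 when 1 mouse was left out. Under normexp the differences of the 12 brightest of the 21 genes moved by more than the spread between mice and none reversed, while quantile normalization, median scaling, the deposited values and leaving out any mouse kept all 12 within it.

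The 23 named genes called lower over the whole array became 81 with normexp, 12 when detection on all arrays was asked, and 14 without the sex term. The methods' t-test gave 882 without adjustment and 1 with it, and leaving out 1 mouse gave 7 to 18. The count of 0 for sex in controls became 2 with all 8 arrays in the fit and 4 with normexp, and 0 to 8 when 1 control was left out. The fall of Bglap3 passed the adjusted test in 14 of 15 other settings (adjusted p between 0.0067 and 0.14), that of Keap1 in 15 of 16 (between 0.0013 and 0.14) and that of Actn3 in 9 of 15 (between 0.011 and 0.26), where the methods' t-test with adjustment was an exception for each of them. For each of the 3 genes these settings include the deposited table, which is not an independent setting, and 8 fits that share most of their mice. The counts are therefore not counts of independent checks. Beyond the exceptions of Actn3 named in the report, its call was also lost without the sex term (adjusted p = 0.070). The offset of 50 in the normexp setting narrows log2 differences between dim signals by construction. How much of the shifts under normexp came from it was not tested, and neither was the cause of the other shifts. The control means of the 21 genes stood only 0.52 to 1.85 log2 units above the lowest detected level, so the signal over background limits what can be said of any of them.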
